A study of Mus musculus with 2 samples.

Results

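The mir-130/mir-301 seed family comprises 4 microRNA genes in these data, Mir130a, Mir130b, Mir301 and Mir301b, of 2202 microRNA genes listed. The members were chosen by symbol, as genes of one seed family, with earlier results of these data known, among them the large difference of Mir301 between the 2 animals. The libraries were made from total RNA of 2 female mice, taken at an age of 10 days from the left cerebral cortex; the animals were of the strain B6CASTF1/J, a first-generation hybrid of C57BL/6J and CAST/EiJ. The labels name no treatment or allele besides the cross, and they give 1 group with 2 biological replicates, called animal 1 and animal 2 here. The 2 females carry different numbers but the same donor entry, so nothing beyond the replicate labels shows that they were separate animals. Since there is 1 group and the members were chosen on the contrast between its libraries, the members' values are given as a description, without a test.

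MicroRNAs are small RNAs released from folded hairpin precursors. They repress messenger RNAs that pair with their seed, bases 2 to 8 of the mature strand, so microRNAs with the same seed can act on overlapping sets of messages. The mir-130/mir-301 family is best known from blood vessels, where miR-130a is linked to endothelial growth, and members have also been studied in cell proliferation and in neurite growth. The 3′ arm of the hairpin is the strand usually named as active. The deposited counts are per hairpin gene and sum both arms, so no count here belongs to one arm.

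The mature 3′ arms of Mir130a, Mir130b and Mir301 are shown first because their shared seed (in capitals) defines the family and their remaining bases set these genes apart; miR-301b-3p is named only, and the seed was not read for it. They are written 5′ to 3′, from RefSeq on build GRCm38.p6, where all 4 members had at least 1 mature sequence.
miR-130a-3p: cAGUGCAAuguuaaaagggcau
miR-130b-3p: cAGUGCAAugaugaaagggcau
miR-301a-3p: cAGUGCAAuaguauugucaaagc

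Counted from 1 at the 5′ end, miR-130a-3p and miR-130b-3p differed at 2 of 22 positions, U11A and A13G, with the base of miR-130a first. The 3′ arm of Mir301 matched miR-130a-3p over the first 9 bases and then diverged, with 10 of 22 compared positions different. Each of these arms was found in 1 of 1005 RefSeq microRNA hairpins; the rest of the genome was not searched. The longest run that miR-130a-3p shared with another hairpin was 15 of its 22 bases, in Mir6389.

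The 5′ arms, with bases 2 to 8 again in capitals, did not share one seed and are shown because they are counted together with the 3′ arms and include that of Mir301b.
miR-130a-5p: gCUCUUUUcacauugugcuacu
miR-130b-5p: aCUCUUUCccuguugcacuacu
miR-301a-5p: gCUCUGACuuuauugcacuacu
miR-301b-5p: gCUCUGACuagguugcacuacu

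The 5′ arms of Mir301 and Mir301b had the same bases 2 to 8 and differed at 3 of 22 positions, U10A, U11G and A12G, with the base of Mir301 first. Those of Mir130a and Mir130b differed at 7 of 22 positions.

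Among the RefSeq mature arms, 4 other mouse genes carried the family's seed. Their sequences are shown because they could act on the same seed matches.
miR-130c: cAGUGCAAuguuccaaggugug
miR-721: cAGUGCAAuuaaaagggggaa
miR-6341: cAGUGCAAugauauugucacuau
miR-6389: cAGUGCAAuguuaaacuuugc

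Mir130c, Mir721, Mir6341 and Mir6389 had 0 reads in both libraries and on both strands. A count of 0 allows up to 3 reads, which is 0.788 CPM for animal 1 and 1.15 for animal 2. CPM is a gene's own-strand reads scaled to the usual common number of reads counted to microRNA genes.

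The 4 members lie at 3 places in the mm10 annotation (GENCODE M21). Mir130a (ENSMUSG00000065484.1) lies on chromosome 2, 84741115 to 84741178, minus strand, between genes, 991 bases from Gm19426. Mir301 (ENSMUSG00000065589.1) lies on chromosome 11, 87113004 to 87113089, plus strand, in an intron of Ska2, which encodes a protein of the spindle and kinetochore, on the same strand. Mir130b (ENSMUSG00000065572.1) and Mir301b (ENSMUSG00000076288.1) lie on chromosome 16, minus strand, at 17124061 to 17124142 and 17124400 to 17124496. Both are in an intron of 2610318N02Rik, on its strand, with 257 bases between them. No read was counted on the strand opposite to any of the 4 hairpins.

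Animal 1 had 3806078 reads counted to microRNA genes, 33.5% of all reads, and animal 2 had 2602935, or 30.4%. Reads with more than 1 mapping position are tabulated apart from the genes and were 1.27 and 1.33 times as many as the counted reads, so levels may be too low where an arm also fits elsewhere in the genome. As a check for 1 library deposited again, the counts of all 531 genes with at least 10 reads were compared between the libraries and differed beyond counting noise (chi-square 198073 with 530 degrees of freedom); nothing about the members is read from it. Reads carry no molecular identifiers in these files, and the intervals below, exact at 95%, cover counting error only. Because the tissue was sequenced in bulk, fewer cells of a type and less RNA per cell cannot be told apart.

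Mir130a made up most of the family's reads in both animals, and Mir301 was the 1 member whose level differed widely between them. The 4 genes together held 0.549% of counted reads in animal 1 (Clopper-Pearson interval 0.542 to 0.557) and 0.451% in animal 2 (0.443 to 0.459). The mean was 0.5002% ± 0.0695 (SD, n = 2). Without Mir301 the other members held 0.461% and 0.444%.

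Mir130a, linked to endothelial growth, had 16202 reads in animal 1 and 10682 in animal 2. That is 4257 CPM (4192 to 4323) and 4104 CPM (4027 to 4182), or 0.418% ± 0.0108 (SD, n = 2) of counted reads. It ranked 47th and 46th among the 2202 genes, so its place was nearly the same in both libraries.

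Mir130b, the neighbour of Mir301b, had 1318 and 861 reads in animals 1 and 2. Its level was 346 CPM (328 to 365) and 331 CPM (309 to 354), with a mean of 339 ± 11.0 (SD, n = 2). The intervals of the animals overlap.

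Mir301, the gene in Ska2, had 3364 reads in animal 1 and 181 in animal 2. At animal 1's share, 2301 reads would have been counted in animal 2. Its level was 884 CPM (854 to 914) in animal 1 and 69.5 CPM (59.8 to 80.4) in animal 2. The mean of 477 CPM has an SD of 576 (n = 2), larger than the mean itself, so no typical level can be read from it. Mir301 ranked 118th in animal 1 and 212th in animal 2.

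Mir301b was the lowest member, with 22 reads in animal 1 and 16 in animal 2. That is 5.78 CPM (3.62 to 8.75) and 6.15 CPM (3.51 to 9.98), a mean of 5.96 ± 0.259 (SD, n = 2). It was the 1 member under 10 CPM in both libraries. On so few reads, a difference between the animals inside these overlapping intervals was not detectable.

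**Figure D1:**
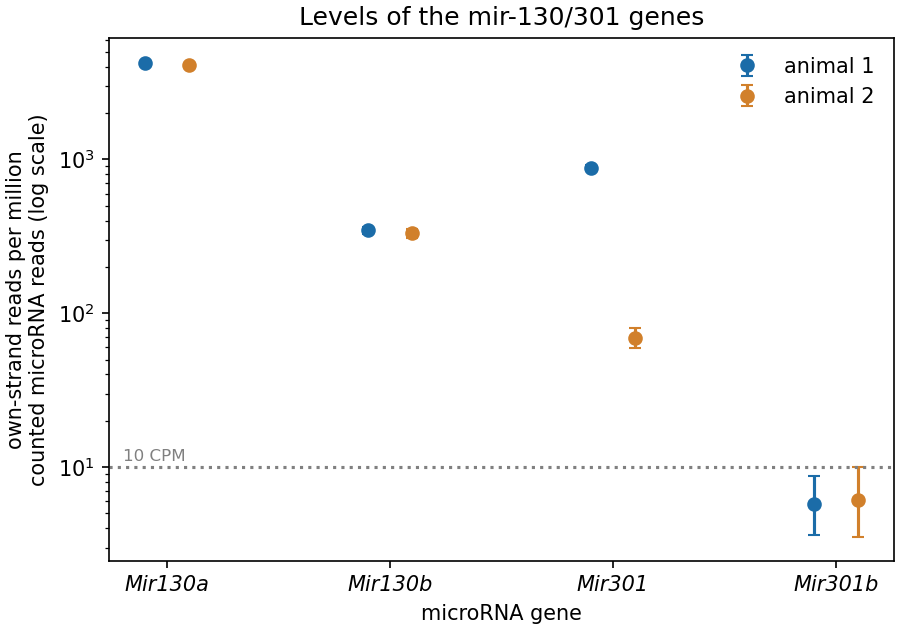
Level of each mir-130/mir-301 gene in each animal, in CPM on a log axis, with exact 95% counting intervals as bars; the dotted line marks 10 CPM. The animals' points lie close together for Mir130a, Mir130b and Mir301b and apart for Mir301, at 884 and 69.5 CPM.

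In order of level, Mir130a was highest and Mir301b lowest in both animals, while Mir301 and Mir130b changed places. Mir301 had 2.55 times the reads of Mir130b in animal 1 (interval 2.39 to 2.72) and 0.210 times in animal 2 (0.178 to 0.247). Their means, 477 and 339 CPM, do not show this reversal, and the SD of Mir301, 576 CPM, is larger than either mean. No order of these 2 genes is therefore given over both animals. Counts of different hairpins also depend on how well each sequence was captured, so the order holds for reads rather than for molecules.

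Ratios within a library need no scaling between libraries, and they show which members kept their proportions in both. Mir130a had 12.3 times the reads of Mir130b in animal 1 (11.6 to 13.0) and 12.4 times in animal 2 (11.6 to 13.3). Mir130b had 59.9 times the reads of Mir301b in animal 1 (39.4 to 95.9) and 53.8 times in animal 2 (32.9 to 94.6). Both ratios were alike in the 2 libraries within counting error, and Mir130a lies on another chromosome than the other 2. From 2 libraries it cannot be told whether these genes vary together. Mir130a over Mir301, in contrast, was 4.82 in animal 1 (4.64 to 5.00) and 59.0 in animal 2 (51.0 to 68.7).

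The make-up of the family's reads followed from this. Mir130a contributed 77.5% of 20906 family reads in animal 1 (76.9 to 78.1) and 91.0% of 11740 in animal 2 (90.5 to 91.5). Mir301 contributed 16.1% in animal 1 (15.6 to 16.6) and 1.54% in animal 2 (1.33 to 1.78). Mir130b contributed 6.30% and 7.33%, and Mir301b 0.105% and 0.136%.

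**Figure D2:**
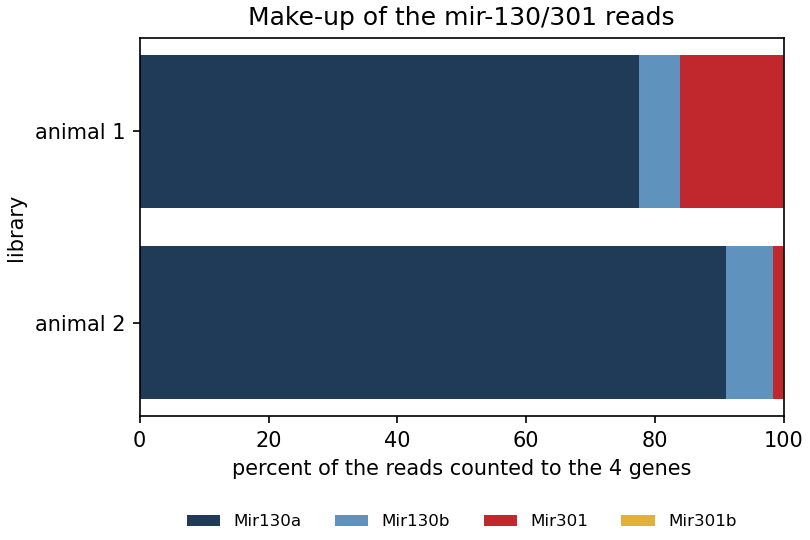
Percent of the reads counted to the 4 genes that each gene contributed, 1 bar per library. Mir301 takes 16.1% of the bar of animal 1 and 1.54% of that of animal 2, and the share of Mir301b, 0.105% and 0.136%, is too thin to see.

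Between the animals, counts were compared as log2 ratios of animal 1 over animal 2 after TMM scaling (a trimmed mean of the ratios over genes), with 0.5 added to each count, over the 531 genes with at least 10 reads in both libraries together. The ratio of Mir301 was 3.46 (exact counting interval 3.25 to 3.69), or 11.0-fold higher in animal 1 (9.51 to 12.9). Those of Mir130a and Mir130b were -0.15 (-0.19 to -0.11) and -0.14 (-0.26 to -0.011), and that of Mir301b was -0.30 (-1.29 to 0.73). With library totals only, Mir130a and Mir130b took the other sign, at 0.053 and 0.066, so no direction can be given for them.

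A difference of at least 2-fold was called between the libraries, and 1 of 4 members, Mir301, met it. Of all 531 genes 23.7% met it, 18.3% higher in animal 1 and 5.46% higher in animal 2; the members were chosen on this contrast, and nothing is read from the comparison. The same member was the 1 of 4 past 1.5-fold, which 43.7% of genes reached, and past 3-fold, which 10.2% reached. The median log2 ratio was -0.14 over the 4 members and 0.045 over all 531 genes, whose quartiles were -0.38 and 0.72. With library totals every ratio is higher by 0.20.

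Mir301 had the highest ratio of the 307 genes with at least 100 reads over both libraries, followed by Mir181a-2 at 3.15. Over all 531 genes 5 stood above it, each with 20 reads or fewer, so the cut at 100 reads leaves all 5 out. The family was chosen with this difference of Mir301 known, so the rank is a description and nothing is read from it.

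**Figure D3:**
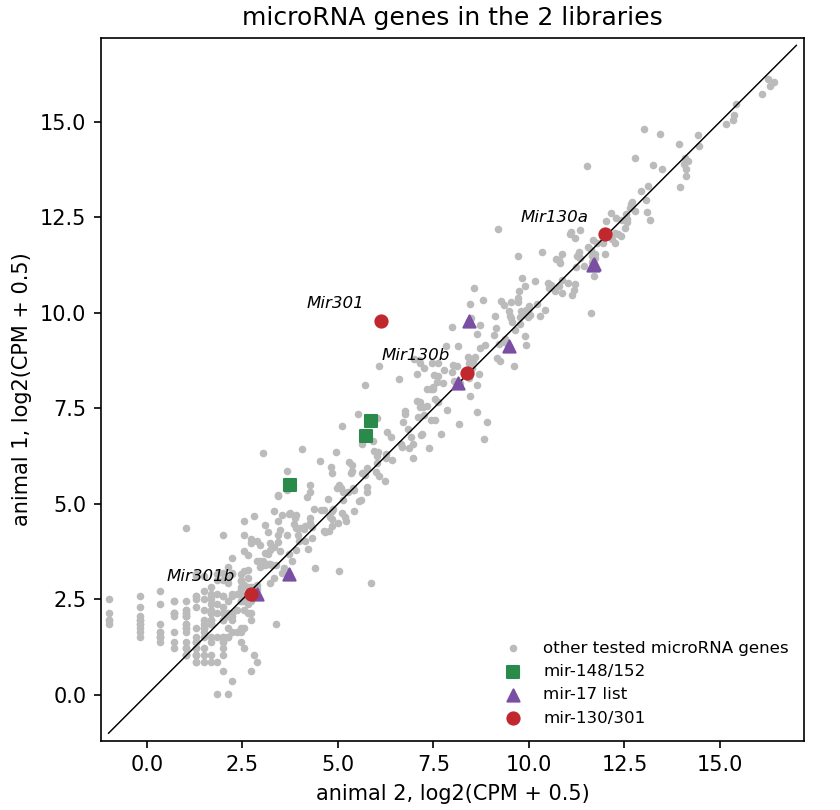
Level of each of the 531 tested microRNA genes in animal 2 (horizontal) and animal 1 (vertical), as log2(CPM + 0.5), 1 point per gene, with the line of equal levels. Mir130a, Mir130b and Mir301b lie near the line and Mir301 lies above it; the mir-148/mir-152 genes and the mir-17 list are marked for comparison.

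**Figure D4:**
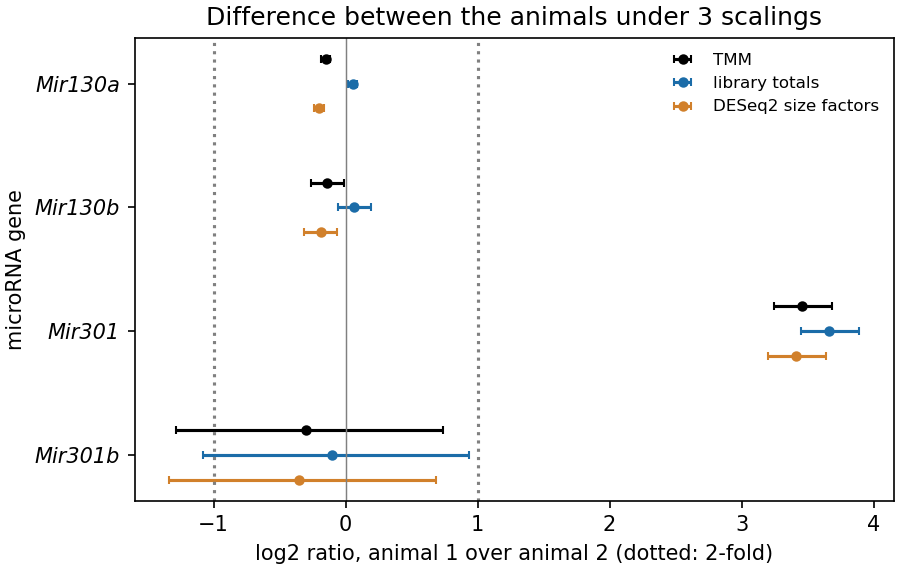
Log2 ratio of animal 1 over animal 2 for each member under TMM, library totals and DESeq2 size factors, with exact 95% counting intervals as bars and dotted lines at a 2-fold difference. Mir301 lies beyond the 2-fold line under each scaling (3.46, 3.66 and 3.41), and the points of the other members lie within it.

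The pair on chromosome 16 was set beside other neighbouring microRNA genes on one strand within 10 kb, 116 pairs in all. The log2 ratios of Mir130b and Mir301b differed by 0.17, against a median difference of 0.58 over these pairs (quartiles 0.30 and 0.97), and 16 pairs differed less. Mir301b rests on 38 reads over both libraries, and the counting interval of its ratio alone, -1.29 to 0.73, is wider than these differences. Mir130a and Mir301 had no other microRNA gene within 10 kb.

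By level in both libraries, the genes nearest to each member were found over 2 libraries, as the distance between log2(CPM + 0.5) values. Mir676 (4333 and 4284 CPM in animals 1 and 2) and Mir378a (3912 and 4632) were nearest to Mir130a, at distances of 0.067 and 0.21. Mir34a (350.0 and 325 CPM) and Mir421 (314 and 347) were nearest to Mir130b, at 0.031 and 0.16. For Mir301b these were Mir7026 and Mir20b, at 0.15 and 0.16. Mir301 had no close match: Mir340 (388 and 67.2 CPM) and Mir339 (445 and 126 CPM) were nearest, at 1.19 and 1.31. Its known difference between the animals enters this distance, so nothing further is read from it.

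The mir-148/mir-152 genes were compared because the seed of their 3′ arms is the same run of bases as positions 1 to 7 of the mir-130/mir-301 arms, shifted by 1 base. The seed is again in capitals.
miR-148a-3p: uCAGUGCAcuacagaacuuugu
miR-148b-3p: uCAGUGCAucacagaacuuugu
miR-152-3p: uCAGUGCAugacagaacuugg

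All 3 mir-148/mir-152 genes had fewer reads than Mir130a and Mir130b in both animals. Mir148a stood at 108 and 52.6 CPM in animals 1 and 2, Mir148b at 143 and 58.4, and Mir152 at 44.7 and 13.1. Their log2 ratios were 0.83, 1.08 and 1.55, so 2 of 3 were at least 2-fold higher in animal 1, as were 18.3% of all 531 genes. Mir301 was above each of them in animal 1, while in animal 2 its interval (59.8 to 80.4 CPM) overlapped those of Mir148b (49.5 to 68.5) and Mir148a (44.2 to 62.2).

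The mir-17 list, microRNAs of proliferating precursors with other seeds, held 0.665% and 0.795% of counted reads in animals 1 and 2. Of its 7 genes 6 had log2 ratios between -0.79 and -0.17, and Mir106b was at 1.15. Of all 531 genes 251 had a negative ratio. With library totals Mir18 was at 0.032, and the interval of Mir20b, -1.43 to 0.52, spans both signs. Mir106b had 3362 reads in animal 1, nearly as many as Mir301, and 898 in animal 2, against 181 for Mir301.

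Markers of cell types in the tissue are given beside the Mir301 result; their part in it was not tested. The 10 neuron genes held 4.10% and 4.17% of counted reads in animals 1 and 2, with log2 ratios from -0.37 to 0.30 over the 8 with enough reads, and the 3 Mir124a genes, which have several copies, had 13 reads or fewer each. Of the 2 endothelial genes, Mir126a stood at 2.89% and 0.826%, a log2 ratio of 1.60. Mir126b is annotated on the opposite strand of the same hairpin and had 0 own-strand reads, with 110041 and 21513 on the other strand; in the both-strand column Mir126a itself kept 4 and 0 reads. Mir130a, the member linked to endothelium, is not on this list and had a log2 ratio of -0.15. Its relation to Mir126a was not tested. The smooth muscle and pericyte genes held 0.315% and 0.452%, with Mir145a at -1.96, Mir143 at -0.63 and Mir145b at 0 reads.

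The remaining lists had summed log2 ratios between -0.67 and 0.54. The 5 blood and microglial genes held 0.159% and 0.194%, with log2 ratios from -0.71 to -0.16. With library totals Mir155 was at 0.039, and the intervals of Mir155 and Mir223 span both signs. The 3 erythroid genes held 0.00780% and 0.00465%, and Mir451a and Mir144 were at 1.31 and 1.17 while Mir486 was at -0.20. The 3 oligodendrocyte genes held 0.119% and 0.164%, with Mir219a-2 at -0.98, Mir338 at -0.35 and Mir219a-1, on 77 and 4 reads, at 3.35.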

How the data were processed

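Small-RNA libraries of 2 animals of 1 group were analysed. Per the file headers in the notes beside each table, the authors deposited read counts per microRNA gene on mm10 with GENCODE M21. The aligner, like the counter, was not given in the sources used here. The deposited tables hold 3 columns of counts (both strands, own strand, opposite strand), and 4 summary rows that were left out of library sizes. The own-strand column was used.

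All 2202 genes matched M21. Factors were computed with edgeR 4.0.16 (TMM: 1.07 and 0.932 for animals 1 and 2) over genes with at least 10 reads in both libraries together, with DESeq2 1.42.0 size factors as an alternative (R 4.3.3). Ratios, exact intervals and sequence comparisons used Python 3.11.15, numpy 2.4.6, scipy 1.17.1 and pandas 2.3.3. The code for ratios and intervals was tried on simulated counts with set ratios and counting error only. Those counts hold no other variation between animals, so the trial says nothing about such variation. With 1 group there was no test between groups, and p-values are not given. The members and lists were chosen with earlier results of these data known. Named genes are the members, other genes with their seed, the 2 nearest genes in level to each, microRNA genes within 10 kb, the mir-148/mir-152 and mir-17 lists and the marker lists; Mir181a-2 was named after its value was seen. Other strand columns, denominators, scalings, offsets, folds and single libraries were tried.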

Additional observations from a re-analysis of the deposited data

How the results depend on the processing

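Beside the values from 1 library each, 36 alternative values were computed. Of these 25 lay within the spread between the animals, the counting interval or, for counts, a factor of 1.5, and 11 lay beyond it. None turned a called direction, but only Mir301 had one. Library totals and DESeq2 size factors shift every ratio by 0.20 and -0.051, too little to turn its ratio of 3.46. For the level of Mir301, whose SD exceeds its mean, staying within the spread says little. The call of Mir301 and the count of 1 member at least 2-fold apart held under each scaling and at 1.5-fold and 3-fold. With library totals only, the log2 ratios of Mir130a and Mir130b were 0.053 and 0.066, against -0.15 and -0.14 with TMM. For Mir130a the ratio was -0.20 with DESeq2 size factors and -0.10 with TMM on all genes with a count. In the both-strand column, which has fewer counted reads, the mean levels of Mir130a, Mir130b, Mir301 and Mir301b were 4502, 365, 518 and 6.42 CPM. Scaled to all reads instead of counted reads they were 1338, 108, 159 and 1.90, and the family share was 0.161%. Left with 1 library each, the levels ranged from 4104 to 4257 CPM for Mir130a, from 331 to 346 for Mir130b, from 69.5 to 884 for Mir301 and from 5.78 to 6.15 for Mir301b, and the family share from 0.451% to 0.549%. No paired analysis was possible because there is 1 group. With at least 100 reads per gene, the pair of Mir130b and Mir301b left the neighbour comparison, because Mir301b had 38 reads. Mir301b rests on few reads, and for the 4 genes with 0 reads the values show only that up to 3 reads are allowed; the part of reads with more than 1 mapping position was not tested.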

Other observations

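The GC content of mature arms is given as a description of the contrast between the libraries. Over 477 of the 531 genes, those with a RefSeq mature sequence, the mean GC content of a gene's arms had Pearson's r of 0.19 and Spearman's rho of 0.22 with the log2 ratio. These run across genes that share the same 2 libraries, which are not independent replicates. The tertile of genes with the lowest GC content had a median log2 ratio of -0.097 and that with the highest 0.37. The arms of Mir301, at 40.0% GC, lie in the lowest tertile, as do those of Mir130a at 40.9% and Mir130b at 45.5%. For Mir301b only the 5′ arm was listed, at 50.0%, so its value is not a mean over both arms. The part of GC content in the ratio of any member was not tested.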
